A study of Mus musculus with 8 samples.

Results

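The comparison described here was Hdac6 knockdown (KD) against control KD in mouse embryonic stem cells (ESCs), taken across all genes on whole-genome arrays. Its members were the 2 arrays whose titles name Hdac6 KD and the 2 whose titles name EGFP KD, together 4 of the 8 arrays of the series, and an Hdac6 KD array was paired with the control KD array of the same replicate letter. The cells were of the E14 line, ESCs derived from the inner cell mass of a mouse embryo, and were grown on gelatin without feeder cells in serum medium with the cytokine LIF. Control KD cells had been infected with a lentivirus that makes a short hairpin RNA (shRNA) against GFP, and Hdac6 KD cells with one that makes a shRNA against Hdac6. RNA was taken 72 h after infection in every group, so infection and hairpin expression were common to both. The other 4 arrays held Tip60 KD and double KD (Tip60 and Hdac6) cells, and entered the fit for the spread between replicates. A single hairpin, the most effective of several screened according to the study's methods, was used for each gene, so a change that depends on the hairpin and one that depends on Hdac6 cannot be told apart. The study's methods call the 2 replicates biological, but neither they nor the labels say whether A and B were separate cultures. The p-values measure the spread between the 8 arrays that remains once the difference between replicate letters is removed.

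Hdac6 belongs to the class IIb histone deacetylases. It resides mostly in the cytoplasm of many cell types, where it removes acetyl groups from alpha-tubulin, from the chaperone Hsp90 and from the actin-binding protein cortactin, and it binds ubiquitin through a zinc finger and helps to carry misfolded proteins to the aggresome. The study asked whether Hdac6 is needed for gene regulation by the Tip60-p400 complex, which holds the acetyltransferase Tip60 (the product of Kat5) and the nucleosome remodeller p400 and which represses genes of differentiation in ESCs.

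Levels are given as log2 of a probe's background-subtracted fluorescence over the 75th percentile of its array, and a change is the Hdac6 KD level minus the control KD level, so that 1 is 2-fold. Values under -2.71 were raised to that floor. A gene was called when the adjusted p of the change was under 0.1. The 4 arrays were not equally sensitive. Between 21896 and 39866 of 43020 spots were well above background, and the scanner software had subtracted a larger background on the control arrays (median 61.0 and 114 units) than on the Hdac6 KD arrays (37.7 and 86.9 units). Replicate A arrays of all groups shared 1 slide and replicate B arrays the other, and each group held the same place on both slides, so place and group cannot be told apart.

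The targeted gene checked the labels. Hdac6 stood at 2.21 and 2.18 in control KD and at -0.28 and -0.32 in Hdac6 KD, replicates A and B in turn. Both Hdac6 KD arrays thus lay far below both control arrays, a decrease of 5.62-fold (log2 change -2.49, SE 0.05, n = 2 against 2, adjusted p = 9.71e-05). The gene's other probe gave -2.41. Kat5, the gene of Tip60, was at 1.34 and 1.37 in control KD and at 1.52 and 1.53 in Hdac6 KD, a difference of 0.17 that was not called (SE 0.09, adjusted p = 0.170, 95% interval -0.06 to 0.39). The other probe of Kat5 was called higher by 0.18, and the gene was called as the mean of both (0.17, adjusted p = 0.0439) and when either double KD array was left out (adjusted p = 0.0647).

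Hdac6 KD changed many genes by small amounts and few by large ones. Of 16678 genes tested, 9894 were called (59.3%), 5224 higher (31.3%) and 4670 lower (28.0%), and 68.4% of the called genes moved by less than 0.5 on the log2 scale. The median change of all genes tested was 0.03. The count rests on pairing arrays by slide: with no replicate block 5439 genes were called, and without the replicate B array of Hdac6 KD 6296. For this reason the larger changes are described first. At least 2-fold changes were called for 464 genes (2.78%), 240 higher (1.44%) and 224 lower (1.34%), and at least 4-fold changes for 16 genes, 5 higher and 11 lower. With no replicate block 443 of these 464 genes were still called. All 464 moved the same way on both slides, which their selection for a large mean change on these slides nearly ensures. The changes on the 2 slides differed by more than 0.8 on the log2 scale for 30 of them, Tinagl1 being the one described below. Across all genes tested, the changes on the 2 slides were correlated (Pearson r 0.789, Spearman rho 0.817), a description across genes, which are not independent and share arrays.

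**Figure D1:**
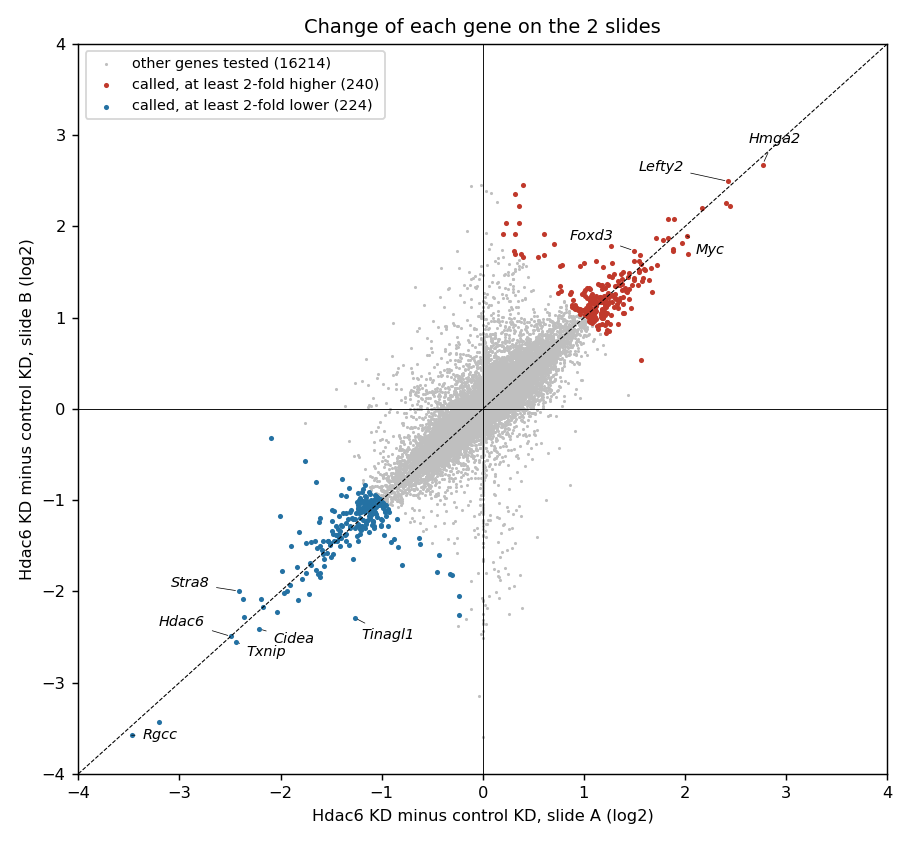
Change of each of the 16678 genes tested (Hdac6 KD minus control KD, log2 scale) on slide A (x axis) and slide B (y axis), 1 point a gene, with 240 genes called and at least 2-fold higher in red, 224 called and at least 2-fold lower in blue, and the dashed line at equal change. Most coloured points lie close to the dashed line, Hmga2 at the upper right and Rgcc at the lower left. The streaks along the vertical axis are genes whose plotted change on slide A was little or none. A gene at the floor on both compared arrays of slide A is placed on that axis by the floor. Its change on slide A was not measured, so the streaks do not show a lack of movement there.

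The largest increase among genes that met the rules for naming was that of Hmga2, an oncofetal chromatin protein with AT-hook DNA-binding domains. Its level was -1.37 and -1.39 in control KD and 1.40 and 1.29 in Hdac6 KD. The groups were far apart, with a 6.60-fold increase (log2 change 2.72, SE 0.06, adjusted p = 9.71e-05). A second, dimmer probe of the gene gave a smaller change of 1.20. Lefty2, a secreted antagonist of the TGF-beta family ligand Nodal, went from 1.43 and 1.54 to 3.86 and 4.04, an increase of 5.51-fold (SE of the log2 change 0.07, adjusted p = 2.33e-04). Myc, the growth-promoting transcription factor, went from 0.34 and 0.26 to 2.35 and 2.16, an increase of 3.88-fold (SE of the log2 change 0.07, adjusted p = 1.73e-04). For these genes each Hdac6 KD array exceeded both control arrays by many times the difference between replicates.

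The 12 other genes among the 15 largest increases had changes between 1.62 and 2.34, and in none of them did the groups overlap. They had been picked for large changes that went the same way in both pairs, which makes overlap unlikely. Enox1 (2.34) encodes a cell-surface oxidoreductase and Dusp27 (2.33) a muscle member of the dual-specificity phosphatase family. Jade2 (1.90), a PHD-finger subunit of histone acetyltransferase complexes, Setd1b (1.85), a histone H3 lysine methyltransferase, and Jrk (1.79), a DNA-binding protein, act on chromatin or DNA. Etv1 (1.65), an ETS factor induced by FGF signals, and Foxd3 (1.62), a forkhead factor of epiblast and neural crest, are transcription factors. Gap43 (1.86) encodes a growth cone protein, Lcmt2 (1.99) a tRNA-modifying enzyme, Napsa (1.81) an aspartic protease, Slc5a11 (1.62) a sodium-coupled inositol transporter and Atp5g1 (1.81) the membrane ring subunit of ATP synthase. Gap43 was at the floor on both control arrays, so the size of its change depends on the floor. Control arrays were also near the floor for Dusp27 (-2.59 and -2.55) and Jrk (-2.28 and -2.69). With the same background on every array these 2 genes rose by 1.95 and 1.41, and on the series matrix values by 1.77 and 1.28. The 2 probes of Atp5g1 disagreed in size, since the dimmer probe rose by only 0.21. A further 3 called genes had changes as large but lacked a usable symbol or failed another rule for naming. Of these, 1 was at least 4-fold higher.

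The largest decrease among genes that met the rules for naming was that of Rgcc. It is a regulator of the cell cycle first described as a response gene to complement. Its level was 1.42 and 1.43 in control KD and -2.05 and -2.15 in Hdac6 KD, 11.5-fold lower (log2 change -3.53, SE 0.07, adjusted p = 9.71e-05). Txnip, an alpha-arrestin that binds thioredoxin and curbs glucose uptake, went from 4.57 and 4.43 to 2.12 and 1.88, 5.65-fold lower (SE of the log2 change 0.06). Stra8, a retinoic acid-responsive gene needed for entry into meiosis, went from 2.57 and 2.05 to 0.16 and 0.05, 4.61-fold lower (SE of the log2 change 0.12), with the control arrays further apart than the Hdac6 KD arrays. In all of them both Hdac6 KD arrays lay below both control arrays by several times the distance between replicates.

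Beside Hdac6 itself, the other 11 of the 15 largest decreases lay between -2.31 and -1.73. Cidea (-2.31) encodes a lipid droplet protein. Aurkc (-2.18), the Aurora kinase of germ cells, went from 3.05 and 3.04 to 0.87 and 0.86, and Syce3 (-1.99) encodes a part of the synaptonemal complex, the structure that joins homologous chromosomes in meiosis. Gadd45g (-1.96) and Ccng2 (-1.92, cyclin G2) are genes of growth arrest, and Ccng2 was at or just above the floor in Hdac6 KD. Gstm3 (-1.97) encodes a glutathione transferase, Lamp2 (-1.88) a protein of the lysosomal membrane, Copz2 (-1.73) a coatomer subunit and Tinagl1 (-1.78) a matrix protein. For Gstm3, Lamp2 and Copz2 the dimmer probe fell less (-0.59, -0.62 and -0.36), and the mean over probes gave -1.28, -1.25 and -1.04. Zfp787 (-2.14) and Zc3h6 (-1.79) encode zinc finger proteins. For Zfp787 a second, dimmer probe was called in the opposite direction (0.20), so the direction of the gene as a whole is uncertain. Tinagl1 had the widest error (SE 0.25), with control arrays at -1.17 and -0.07. A further 7 called genes had decreases as large but lacked a usable symbol or failed another rule for naming. Of these, 4 were at least 4-fold lower. Of all called genes, 1544 had another probe called and in 258 of them another probe moved the opposite way.

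**Figure D2:**
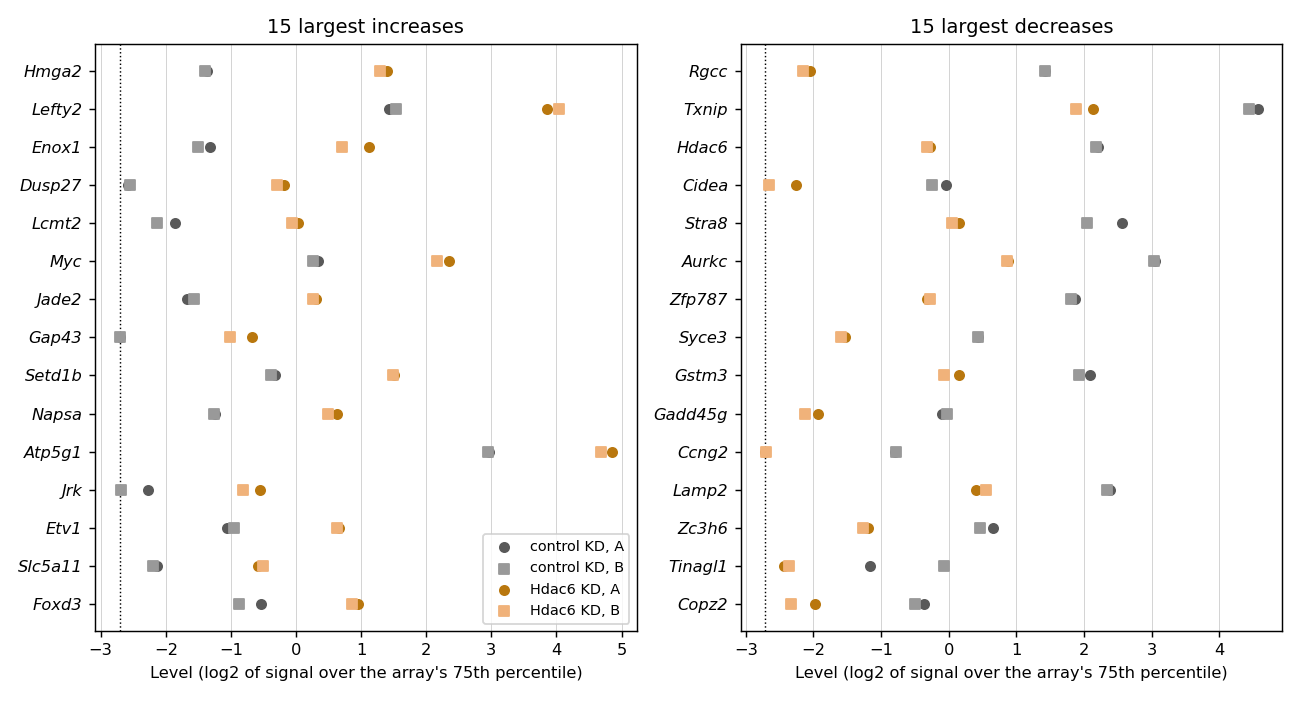
Levels on each of the 4 arrays (log2 of signal over the array's 75th percentile) of the 15 largest increases (left) and the 15 largest decreases (right), with control KD in grey, Hdac6 KD in orange, circles for replicate A, squares for replicate B and a dotted line at the floor. The 2 arrays of a group lie close together beside the distance between groups in nearly every row, with Tinagl1 control KD as the widest pair.

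Genes were then grouped by function. The number of tested members of a list called in each direction is to be read against the 31.3% higher and 28.0% lower of all genes tested, and their median change against 0.03. With no replicate block, 15.8% of all genes were called higher and 16.9% lower, and counts given with no block are to be read against these. Members that were too dim were not tested.

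Cell identity was examined first. Markers of ESCs stayed on. Of 25 genes of core and naive pluripotency, 11 were called higher and 5 lower (median change 0.10), and 1 changed at least 2-fold. The core factor Pou5f1 (Oct4) rose by 0.47 (SE 0.09, adjusted p = 8.07e-03), a call kept with no replicate block. Sox2 (-0.07, SE 0.06), Klf4 (-0.01, SE 0.05), Esrrb (-0.02, SE 0.06) and Zfp42 (0.10, SE 0.07) were not called. Nanog fell by 0.18, a call lost with no replicate block (adjusted p = 0.170). The exception was Dppa3 (Stella), a maternal-effect gene of naive cells and germ cells, which went from 1.08 and 0.84 to 0.00 and -0.47, a change of -1.19 (SE 0.08).

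Genes of the formative and primed epiblast, the state that follows naive pluripotency in the embryo, were higher. Of 14 tested of 18, 10 were called higher and none lower, and the median change was 0.50. All 8 tested genes listed as its factors rose, Otx2 the least (0.27, adjusted p = 0.0326, and 0.189 with no replicate block). Foxd3 rose by 1.62, Sox4 by 1.51 (from -1.20 and -0.84 to 0.39 and 0.59), Sall2, a zinc finger gene, by 1.05 from the floor and Etv4 by 0.92. The increase of Sox4 was 0.71 as the mean over its probes. The primed markers Fgf5, Sox3, Wnt8a and Cer1 were too dim to test. The de novo methyltransferase Dnmt3b rose by 0.58 (SE 0.06) and Dnmt3a was not called (-0.16, SE 0.11). Without the replicate block 9 of the 14 were called higher.

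Of 9 tested of 17 neural and ectoderm genes, 7 were called higher and none lower (median 0.52, 4 called higher with no replicate block). The median was 0.39 with the same background on every array and 0.35 on the series matrix values. Of the 9, 0 lay in the brightest bin of genes, and the part of signal level was not tested here either. Gbx2, a homeobox factor that also acts in the ESC network, went from -1.09 and -1.19 to 0.50 and 0.35, a change of 1.56 (SE 0.05). Sox11 (0.94), Nefl (0.73), Zic1 (0.56) and Tubb3 (0.52) were also higher. The call of Zic1 was lost with no replicate block (adjusted p = 0.140), and its change was 0.35 on the series matrix values. Sox11 was at the floor on both control arrays, and its change was 0.50 on the series matrix values of all probes, where the call was lost (adjusted p = 0.313), and 1.61 with a low floor. Pax6 and Pax3 were too dim to test. Trophectoderm genes went mostly the other way, with 7 of 9 called lower and 2 higher (median -0.40). Ascl2, a factor of the placental spongiotrophoblast, fell by 1.30 and Tead4 was higher (0.94, from the floor), and Cdx2 and Elf5, which define the lineage, were too dim to test. Few endoderm (9 of 20) and mesoderm (6 of 15) genes were bright enough to test, with 2 higher and 1 lower in each list. Gata6, Sox17, T and Mixl1 were not among them. Amn, a gene of visceral endoderm, fell by 1.72 (SE 0.07).

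Among markers of fibroblasts, which could have come with the cells, Col1a2, Dcn, Lum, Postn and Twist1 were too dim to test. Of 5 tested, 1 was called higher and 2 lower (none and 1 with no replicate block). Pdgfrb was at least 2-fold lower (-1.20 to -1.03 over 22 alternatives of the processing). Col1a1 lay at -2.24 and -2.60 in control KD and at the floor in Hdac6 KD. The call of Col1a1 was lost in 6 of 20 alternatives, and that of Col3a1, the member called higher, in 13 of 20.

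Signalling genes of the Nodal pathway moved in both directions, within most roles as well as between them. Nodal is a ligand of ESCs and epiblast that acts through activin receptors and Smad2, Smad3 and Foxh1, and switches on its own antagonists. Of 23 genes tested of 30, 12 were called higher and 8 lower (8 and 4 with no replicate block), with a median of 0.17. Of 4 ligands tested 3 were higher, Inhbb by 1.02, Gdf3 by 0.50 and Nodal by 0.47, and the co-receptor Tdgf1 (Cripto) was higher by 0.59. Of 3 antagonists tested 2 were called higher and 1 lower, and of 6 effectors 3 were higher and 2 lower. The antagonists Lefty2 (2.46) and Lefty1 (1.44, from 0.75 and 0.62 to 2.18 and 2.06) rose most, together with the effector Foxh1 (1.02). The receptors Acvr1b, Acvr2a and Acvr2b fell by 0.24 to 0.38, the inhibitory Smad7 by 0.24 and the repressor Skil by 0.67. As the mean over probes the calls of Skil (-0.12, adjusted p = 0.208) and Tdgf1 (0.33, adjusted p = 0.322) were lost. For the BMP pathway, 6 of 14 genes tested were called higher and 2 lower (median 0.31). The median was 0.30 with the same background on every array and 0.28 on the series matrix values, and 1 of the 14 lay in the brightest bin. The higher members were largely Id genes, which encode inhibitors of basic helix-loop-helix factors. Id3 went from -2.38 and -2.01 to -0.74 and -0.60, a change of 1.53 (SE 0.09), Id1 rose by 1.07 from the floor, Id4 by 0.95 and Id2 by 0.33, a call lost in 3 of 22 alternatives of the processing, among them that with no replicate block (adjusted p = 0.177). No BMP ligand tested was called.

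Targets of FGF and ERK signalling moved in both directions. Of 18 tested, 8 were called higher and 4 lower, 5 and 2 of them at least 2-fold. Myc (1.96), Etv1 (1.65), Spred1 (1.36), Ier2 (1.17) and Spry4 (1.05) rose, of which Spred1 and Spry4 encode feedback inhibitors of the pathway. The immediate early genes Fos and Ier3 fell, Ier3 from -0.99 and -1.10 to -2.25 and -2.31 and Fos from -1.33 and -1.57 to the floor. Of 18 Wnt pathway genes tested of 35, 8 were higher and 2 lower, with the receptor Fzd2 (1.21) and the secreted inhibitor Sfrp1 (1.28) at least 2-fold higher. Fzd2 was at the floor on 1 control array, and rose by 0.75 on the series matrix values.

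Germ cell genes fell. ESCs express some genes of primordial germ cells and meiosis. Of 10 tested of 14, 9 were called lower and none higher, and 9 were lower with no replicate block too (median -0.68, from -0.73 to -0.62 over 22 alternatives of the processing). Stra8 changed by -2.20, Mael, which acts in the piRNA pathway, by -1.26 (from 1.60 and 1.68 to 0.38 and 0.37), Taf7l, a testis subunit of TFIID, by -0.88 (SE 0.21), Ddx4 (Vasa), an RNA helicase of germ cells, by -0.78, Dazl, an RNA-binding protein, by -0.69, and Hormad1, a protein of the meiotic chromosome axis, by -0.68. Slc25a31 was the member not called (-0.15). The call of Taf7l was lost in 3 of the alternatives, and its change was -0.50 without the replicate B array of control KD. Hormad1 fell by 0.40 with a normexp background. The E-box CACGTG is bound by dimers of Max with Myc, Mga and related factors, and the windows of Mael and Ddx4, from 250 bases before to 50 bases after the RefSeq start site on build GRCm38.p6, are shown because both genes fell and both windows hold it. They lie at chr1:166238695-166238994, minus strand, and chr13:112652261-112652560, minus strand, and capitals mark the E-box.
Mael: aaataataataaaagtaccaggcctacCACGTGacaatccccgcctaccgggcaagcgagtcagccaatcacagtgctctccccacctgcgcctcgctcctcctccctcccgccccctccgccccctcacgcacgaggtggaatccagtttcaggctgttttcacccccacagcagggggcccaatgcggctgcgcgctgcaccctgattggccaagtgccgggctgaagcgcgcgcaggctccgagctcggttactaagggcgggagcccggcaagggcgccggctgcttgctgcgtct
Ddx4: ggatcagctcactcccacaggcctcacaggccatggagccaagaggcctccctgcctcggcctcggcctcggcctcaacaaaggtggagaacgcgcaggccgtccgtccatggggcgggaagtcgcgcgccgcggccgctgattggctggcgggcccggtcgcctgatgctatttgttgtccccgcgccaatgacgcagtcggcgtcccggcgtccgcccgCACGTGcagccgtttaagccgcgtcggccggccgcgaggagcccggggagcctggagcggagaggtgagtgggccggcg

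CACGTG, read on both strands, which are the same for a palindrome, was found in windows of 7 of the 10 tested germ cell genes (6 of the 9 that fell), against 8.09% of the 27025 genes with a window. Windows of Stra8, Dazl and Rpl10l, which fell, lacked the motif, and that of Slc25a31, which was not called, held it. The match is a description, and the motif and the list were chosen with the changes known.

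Genes of the amino acid stress response also fell. Atf4 is a transcription factor made when uncharged tRNA or other stress triggers phosphorylation of eIF2alpha, and it drives amino acid synthesis, uptake and tRNA charging. Of 30 genes tested, 22 were called lower and 1 higher, 18 and none with no replicate block (median -0.45, from -0.48 to -0.37 over 22 alternatives). Atf4 itself went from 4.64 and 4.46 to 3.45 and 3.59, a change of -1.03 (SE 0.09). Ddit4, an inhibitor of mTORC1, went from 4.38 and 4.32 to 2.74 and 2.80 (-1.58, SE 0.06), and Chac1, an enzyme that degrades glutathione, from 2.43 and 2.51 to 1.17 and 1.21 (-1.28, SE 0.06). Atf5 (-1.10), Asns (asparagine synthetase, -0.78) and Trib3 (-0.66) fell with them. Phgdh, the first enzyme of serine synthesis, was the member that rose (0.31), and Ddit3 (Chop) was not called (-0.59, SE 0.27). The list has 19 of its 30 members in the brightest of 5 equal bins of genes by signal, in which the median change was -0.10 and 33.7% of the called genes were higher.

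The windows of Chac1, Asns and Trib3 are shown because all 3 genes fell and each window holds TGATGNAA, the core of the C/EBP-ATF response element that Atf4 dimers bind. They lie on GRCm38.p6 at chr2:119350992-119351291, plus strand, chr6:7693160-7693459, minus strand, and chr2:152344011-152344310, minus strand, and capitals mark the match, which reads in reverse complement in Chac1 and Trib3.
Chac1: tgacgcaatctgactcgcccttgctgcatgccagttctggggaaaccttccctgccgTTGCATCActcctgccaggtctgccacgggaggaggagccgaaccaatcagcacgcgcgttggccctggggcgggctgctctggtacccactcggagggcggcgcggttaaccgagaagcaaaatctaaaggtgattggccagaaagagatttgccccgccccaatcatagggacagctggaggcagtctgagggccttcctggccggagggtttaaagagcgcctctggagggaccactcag
Asns: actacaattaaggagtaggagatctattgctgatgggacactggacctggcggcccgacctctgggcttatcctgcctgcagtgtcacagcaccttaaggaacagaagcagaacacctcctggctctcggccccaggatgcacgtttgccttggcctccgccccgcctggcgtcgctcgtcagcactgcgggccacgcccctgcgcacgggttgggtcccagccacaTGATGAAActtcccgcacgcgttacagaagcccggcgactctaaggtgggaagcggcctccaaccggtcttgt
Trib3: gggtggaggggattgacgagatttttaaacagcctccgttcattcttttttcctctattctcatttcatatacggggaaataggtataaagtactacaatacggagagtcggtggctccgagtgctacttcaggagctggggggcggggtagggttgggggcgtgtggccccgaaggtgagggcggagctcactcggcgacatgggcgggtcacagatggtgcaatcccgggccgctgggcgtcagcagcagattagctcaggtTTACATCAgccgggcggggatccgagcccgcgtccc

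Read on both strands, TGATGNAA lay in a window of 9 of the 25 list genes with a RefSeq window (8 of 19 that fell), against 4.51% of all genes with a window. As above, the match is a description of these letters.

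**Figure D3:**
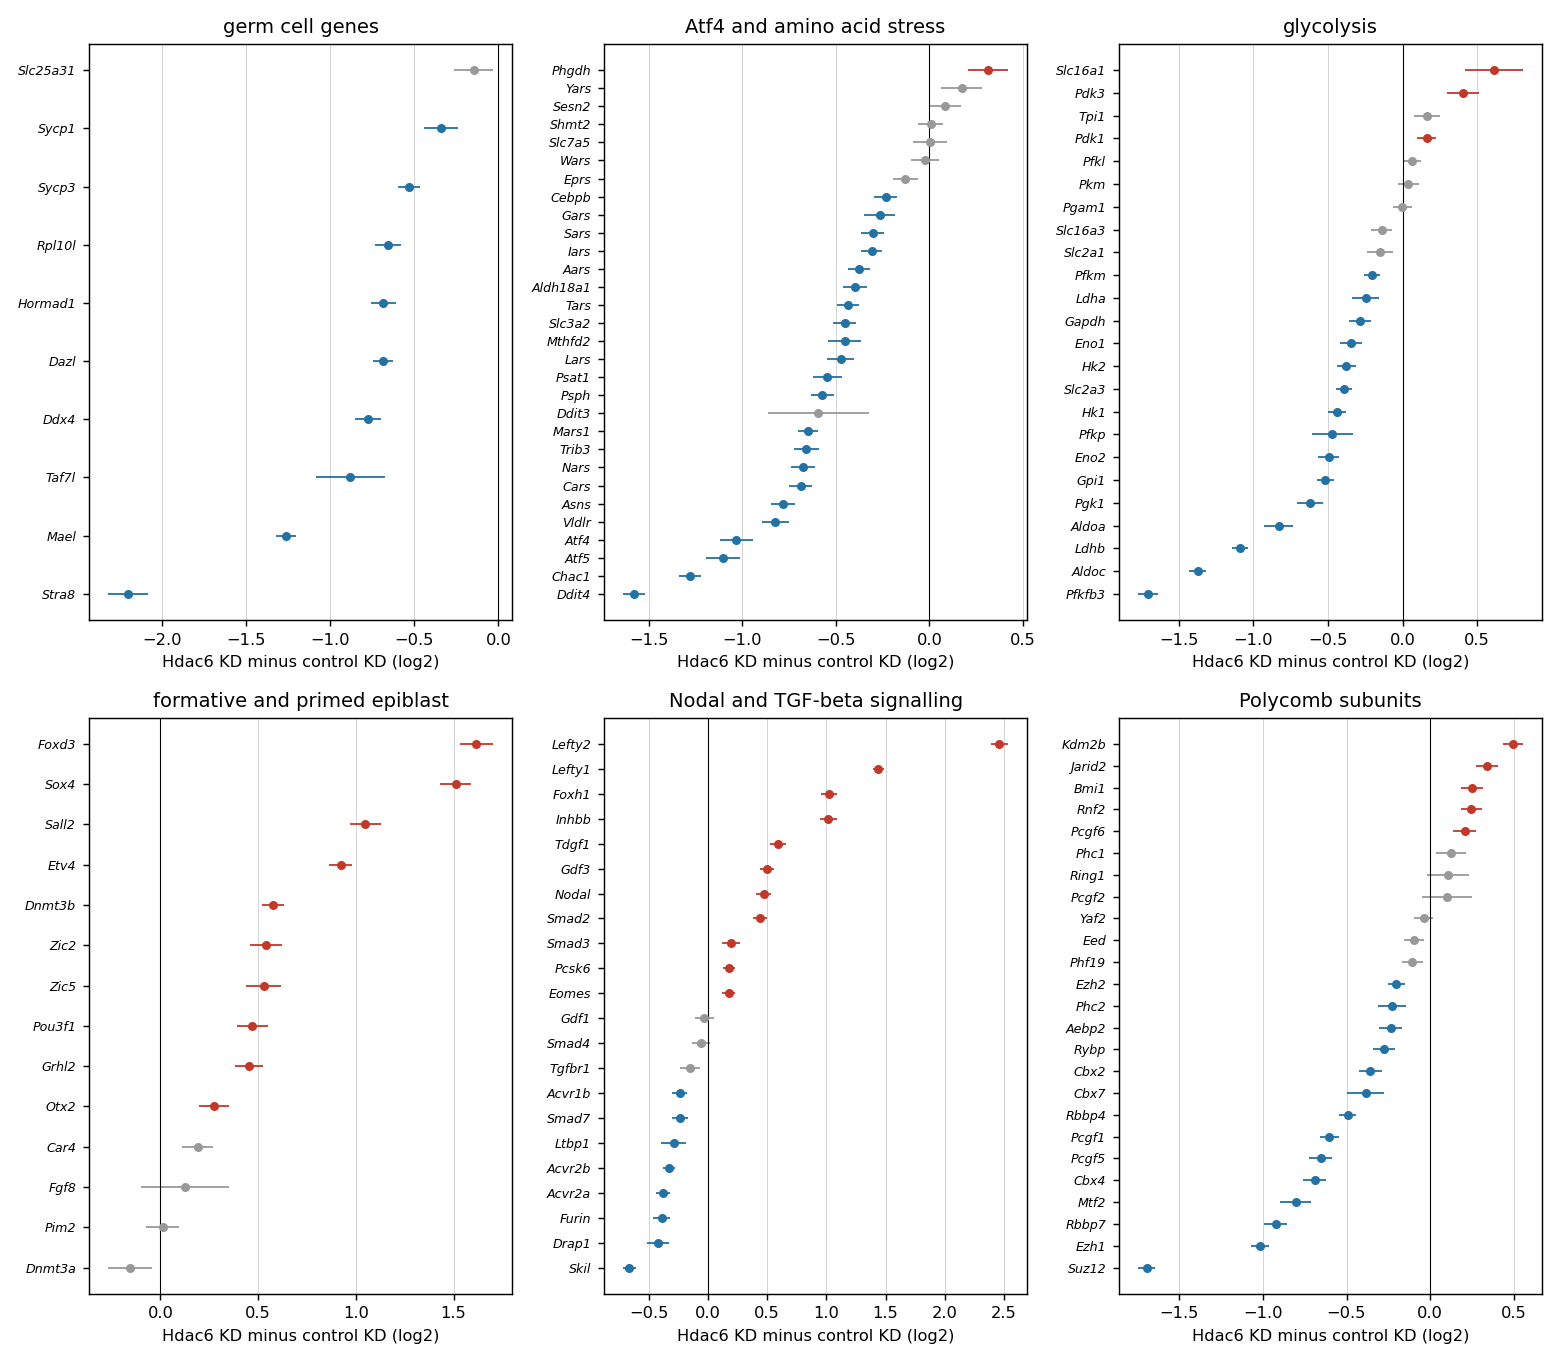
Change in Hdac6 KD (log2, point) with its standard error from limma (bar, 1 SE) for tested members of 6 gene lists (1 member of the Nodal list is not shown), in red where called higher, blue where called lower and grey where not called. Germ cell genes lie to the left of 0 without exception, most of the Atf4 list does so with Phgdh as the only red point, and the Nodal list runs from Skil at -0.67 to Lefty2 at 2.46.

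Metabolic genes were lower in large numbers but by small amounts. Of 24 glycolysis genes tested, 15 were called lower and 3 higher (12 and 2 with no replicate block), and all 13 enzymes that were called were lower. Pfkfb3, which makes the allosteric activator of phosphofructokinase, went from 0.74 and 0.63 to -0.96 and -1.08 (-1.71, SE 0.07), Aldoc (aldolase C) from 2.67 and 2.73 to 1.26 and 1.39 (-1.37, SE 0.06), and Ldhb (lactate dehydrogenase B) fell by 1.09. Of the 43 genes of ATP synthase and the respiratory chain, 29 were called lower and 2 higher, with Cox6c (-0.61) and Sdhd (-0.58) among the largest decreases. Atp5g1 was the only member to change 2-fold, and it rose. Log2 values of the series matrix gave smaller medians. The median change was -0.32 for glycolysis and -0.28 for the respiratory list, and -0.16 and -0.15 on the series matrix values. Of the members, 17 of 24 and 42 of 43 lay in the brightest bin of genes, whose median change was -0.10, and the part of signal level in these medians was not tested. In the list of alpha-arrestins and glucose response 4 of 10 were called lower and 2 higher (3 and 1 with no replicate block). Its median was -0.15, and -0.02 on the series matrix values. Beside Txnip, another alpha-arrestin induced by glucose, Arrdc4, fell from 2.15 and 2.06 to 0.93 and 0.92 (-1.18, SE 0.06). The glucose transporter Slc2a1 was not called. In the list of glutathione and oxidant defence, 12 of 28 were lower and 11 higher, Gstm3 (-1.97) and Gstm6 (-1.24) at one end and Srxn1 (1.20) and Nqo1 (0.94) at the other.

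Targets of p53 were mostly lower. Of 24 tested, 16 were called lower and 2 higher (12 and 2 with no replicate block), with a median of -0.35 (-0.23 on the series matrix values). Ddit4, also on the Atf4 list, Gdf15 (-1.51), the death receptor gene Tnfrsf10b (-0.94), Bbc3 (Puma, -0.92), Plk2 (-0.72) and Mdm2 (-0.63) fell, and Cdkn1a (p21) fell by 0.37. Trp53, the gene of p53 itself, was higher (0.63, SE 0.05). Of 29 genes of the G1 and S phases 11 were lower and 6 higher, with cyclin genes Ccnd2 (1.11) and Ccne1 (1.02) rising and Rb1 (-1.15) and Orc4 (-1.11) falling. Ccnd2 rose from the floor (1.75 with a low floor), and Orc4 fell by 0.69 as the mean over its probes.

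Among chromatin regulators, Polycomb subunits were more often lower than higher, 14 against 5 of 25 tested (10 and 3 with no replicate block, median -0.23). Suz12, a core subunit of PRC2, went from 4.02 and 3.87 to 2.32 and 2.18, a change of -1.70 (SE 0.05), and Ezh1, one of its alternative catalytic subunits, fell by 1.02. The other catalytic subunit, Ezh2, fell by 0.20, a call lost with no replicate block (adjusted p = 0.248), and the core subunit Eed was not called (-0.10, SE 0.06). Kdm2b was the member with the largest increase (0.50). Of 19 Tip60-p400 subunits 6 were called higher and 4 lower, none 2-fold, with Yeats4 at 0.57 and Ep400 at -0.52. Of 16 deacetylases tested beside Hdac6 none changed 2-fold, and Sirt1 (0.72) and Sirt3 (-0.78) were among the largest changes. Hdac8 rose by 0.79 from the floor, by 0.52 with the same background on every array and by 0.44 on the series matrix values. Of 16 oncofetal genes linked to let-7 and its antagonist Lin28, 10 were higher and 3 lower (median 0.42), Hmga2 and Myc being the 2 that rose at least 2-fold and Lin28b (0.76) and Igf2bp3 (0.84) next.

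Genes tied to the known biochemistry of Hdac6 moved little. Of 22 genes of its substrates and partners, 7 were called higher and 4 lower, a share near that of all genes, with a median of 0.00 and no 2-fold change. Tuba4a was the highest (0.85, SE 0.07), the autophagy receptor Sqstm1 (p62) rose by 0.59, and Atat1, the acetyltransferase that opposes Hdac6 on tubulin, fell by 0.51, a call lost with no replicate block (adjusted p = 0.111), and by 0.27 as the mean over its probes. The substrate genes Hsp90aa1 (-0.02) and Cttn (-0.07) were not called. Heat shock and chaperone genes (9 higher, 7 lower of 29) and proteasome genes (13 higher, 5 lower of 37) had medians of 0.02 and 0.03, and Hsph1 (1.06) was the only one of either to change 2-fold. In the 38 genes of autophagy and the lysosome 17 were higher and 16 lower, with Lamp2 (-1.88) and the autophagy conjugation protein Atg12 (-1.04) at least 2-fold lower. Cytoskeletal genes leaned upward, 15 higher and 8 lower of 27 for tubulins and microtubule-associated proteins (median 0.21) and 11 higher and 3 lower of 21 for actin and its regulators (median 0.26). Stmn3 (1.20) and the neurofilament gene Nefh (1.41, from -1.76 and -1.87 to -0.28 and -0.52) were the members of the cytoskeletal lists that rose 2-fold, though Stmn3 was at the floor on 1 control array and rose by 0.78 on the series matrix values.

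In other lists, 4 of 19 imprinted genes rose at least 2-fold, Phlda2 (1.25), Grb10 (1.24, from the floor), Mirg (1.16) and Mest (1.15), and Ascl2 fell. Of 13 tested interferon response genes Ddx58 (RIG-I) rose by 1.34 and Stat2 fell by 1.01, and 11 others of the list, Ifit1 included, were too dim to test. The 13 tested genes of MHC class I and antigen processing moved in both directions, 4 higher and 5 lower (median -0.10). B2m, the light chain of class I, rose by 1.02, while the heavy chain genes H2-K1 (-0.41), H2-T23 (-0.68) and H2-M3 (-0.65) fell. In the 30 genes of sterol and fatty acid synthesis 15 were lower and 10 higher, with Fads2 (1.11, and 0.66 as the mean over its probes) the only 2-fold change. Of 14 housekeeping genes 6 were lower and 3 higher, B2m again the only 2-fold change, and Gapdh fell by 0.28, a call lost in 8 of 22 alternatives. A further list held genes that the study had picked for RT-qPCR from clusters of these array data, so it is no independent evidence of direction. Of its 9 tested members 4 were higher and 3 lower.

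**Figure D4:**
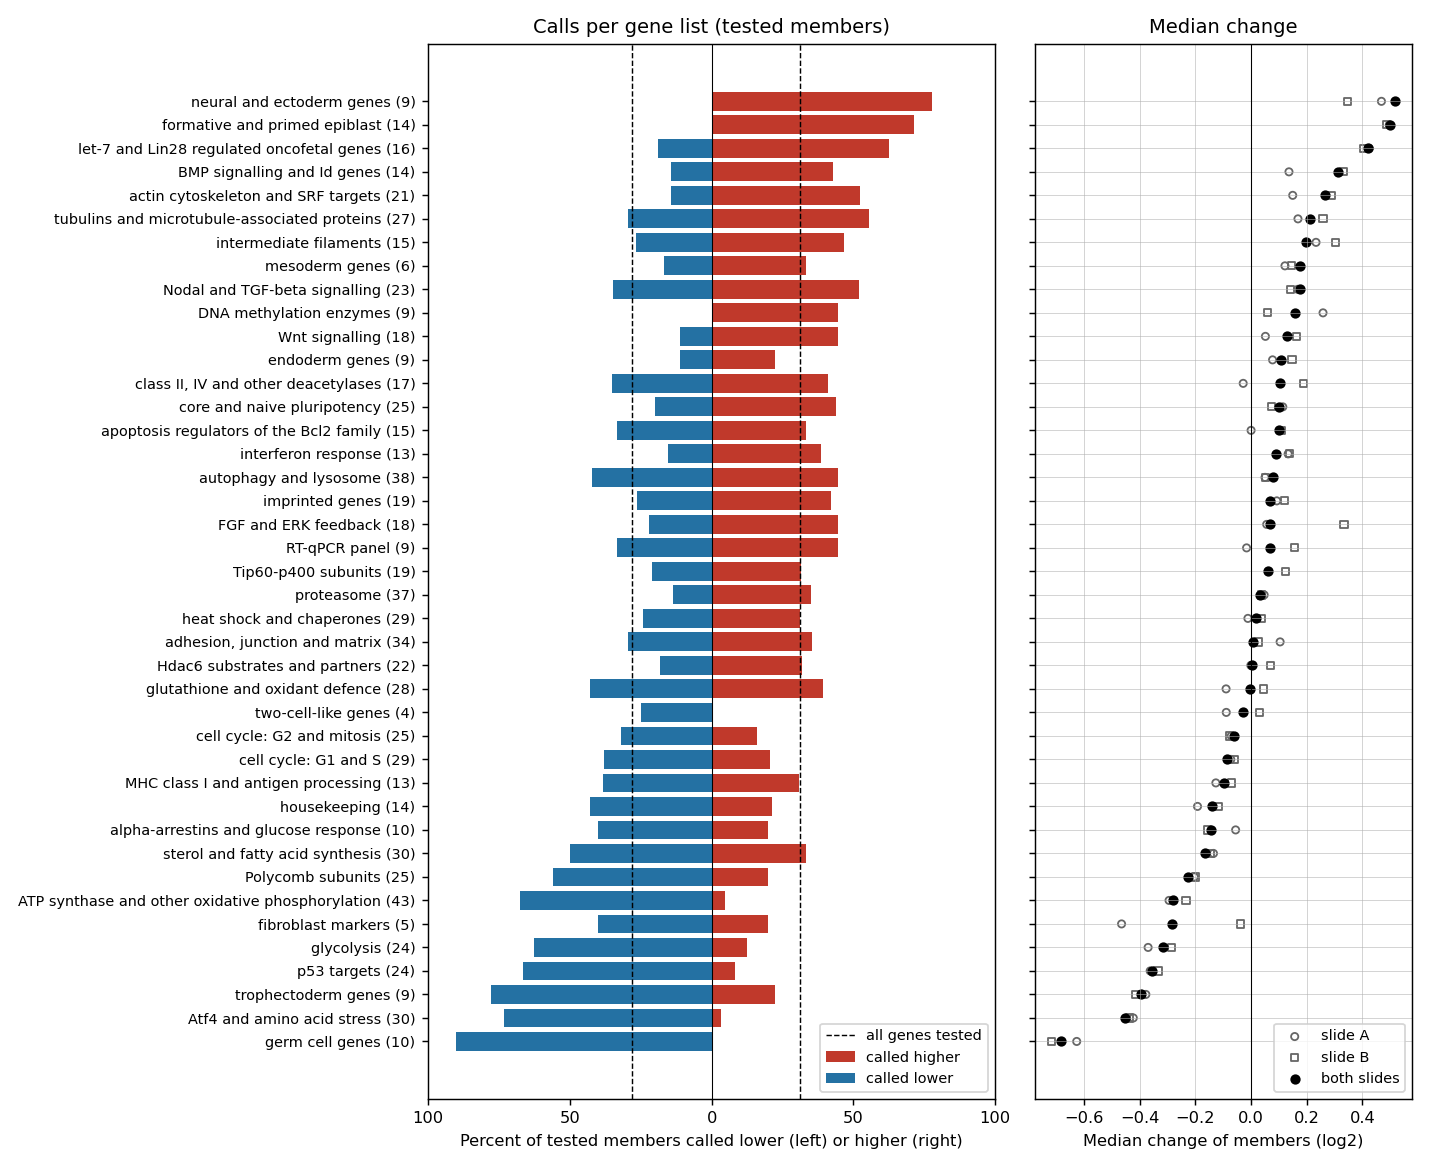
Left, the percent of tested members called higher (red, to the right) or lower (blue, to the left) in each of 41 gene lists, with the number tested in brackets and dashed lines at the 31.3% and 28.0% of all genes tested. Right, the median change of the members (log2) from both slides (filled) and on each slide (open), from the germ cell list at -0.68 to the neural and ectoderm list at 0.52.

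The sign of a call depended on signal level. In the dimmest of 5 equal bins of genes 76.9% of the called genes were higher, and in the brightest 33.7%, with median changes of 0.16 and -0.10. When the same background was used for every array the medians were 0.06 and -0.08. Of the 464 genes changed at least 2-fold, 461 were called in the same direction with that background, 460 on the series matrix values, and 401 had no value at the floor on the 4 arrays. By chromosome, the X carried 18 genes at least 2-fold lower among 639 tested (2.82%, Hdac6 and Lamp2 among them) against 1.34% of all genes, and chromosome 14 carried 17 at least 2-fold higher among 648 (2.62%) against 1.44%. They were picked as the highest share of any chromosome in each direction, and other chromosomes also lay above or below the shares of all genes. These shares are given as a description.

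Arrays of Hdac6 KD were also compared directly with those of Tip60 KD, with no control array in the contrast. Of 16678 genes 7559 differed (45.3%), 3648 higher (21.9%) and 3911 lower (23.5%) in Hdac6 KD, and 320 differed at least 2-fold (1.92%), 137 higher (0.821%) and 183 lower (1.1%). With no replicate block 4202 genes differed, and without the replicate B array of Hdac6 KD 4938. Hdac6 was lower by 2.06 in Hdac6 KD and Kat5 was higher by 1.52 (95% interval 1.30 to 1.75), both in the direction of the labels.

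Among the genes with the largest changes against control KD, Hmga2 and Cidea stood out. Hmga2 was 2.33 higher in Hdac6 KD than in Tip60 KD (SE 0.06) and Cidea 2.49 lower (SE 0.06), differences about as large as those from control KD. Double KD arrays did not share the fall of Cidea, although their Hdac6 change against control KD was -1.87. Against control KD, Cidea was not called there (0.13) and Hmga2 rose by 1.36. Aurkc (-1.20), Zfp787 (-0.997), Gadd45g (-0.86), Stra8 (-0.74), Tinagl1 (-0.72) and Syce3 (-0.64) were also lower in Hdac6 KD than in Tip60 KD. So were Copz2 (-0.55), Zc3h6 (-0.51) and Lamp2 (-0.35). Rgcc, the largest decrease, differed by -0.26 (95% interval -0.43 to -0.08), and its change in Tip60 KD against control KD was -3.27. Etv1 (0.54), Jade2 (0.38), Lefty2 (0.29), Jrk (0.29) and Enox1 (0.26) were higher in Hdac6 KD than in Tip60 KD. In the opposite sense, Myc (-1.19), Foxd3 (-0.85) and Gap43 (-0.77) were lower in Hdac6 KD than in Tip60 KD although they rose against control KD, and Gstm3 (0.59) and Txnip (0.37) were higher although they fell. Genes whose direct difference was not called included Atp5g1 (0.01, 95% interval -0.17 to 0.19), Setd1b (-0.05, -0.20 to 0.09), Napsa (0.04, -0.11 to 0.19) and Dusp27 (-0.13, -0.29 to 0.03). Ccng2 was at or just above the floor on all 4 arrays of this contrast, so its difference is set by the floor and was not measured.

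Of the functional lists, several members that rose in Hdac6 KD were lower there than in Tip60 KD, such as Ccnd2 (-1.98), Tubb3 (-1.44), Nefl (-1.42), Sfrp1 (-0.91), Nefh (-0.88) and Id3 (-0.62). Others were higher than in Tip60 KD, such as Phlda2 (1.47), Srxn1 (1.19), Map1b (1.18), Grb10 (1.08), Sox4 (0.99), Sox11 (0.94), Spred1 (0.89), Lefty1 (0.86) and Dnmt3b (0.71). Sox11 was at the floor on both Tip60 KD arrays, and Grb10 on 1 of them, so these differences depend on where the floor lies. Of the members that fell, Orc4 (-1.43), Dazl (-1.29), Suz12 (-1.25), Rbbp7 (-0.79) and Ddx4 (-0.55) were lower in Hdac6 KD than in Tip60 KD too, while Tnfrsf10b (0.94), Plk2 (0.78), Ddit4 (0.56) and Gdf15 (0.43, at the floor on 1 Tip60 KD array) were higher. For Chac1 (0.15), Asns (-0.16), Atf5 (0.02), Mael (-0.14) and Gbx2 (0.03) the direct difference was not called.

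**Figure D5:**
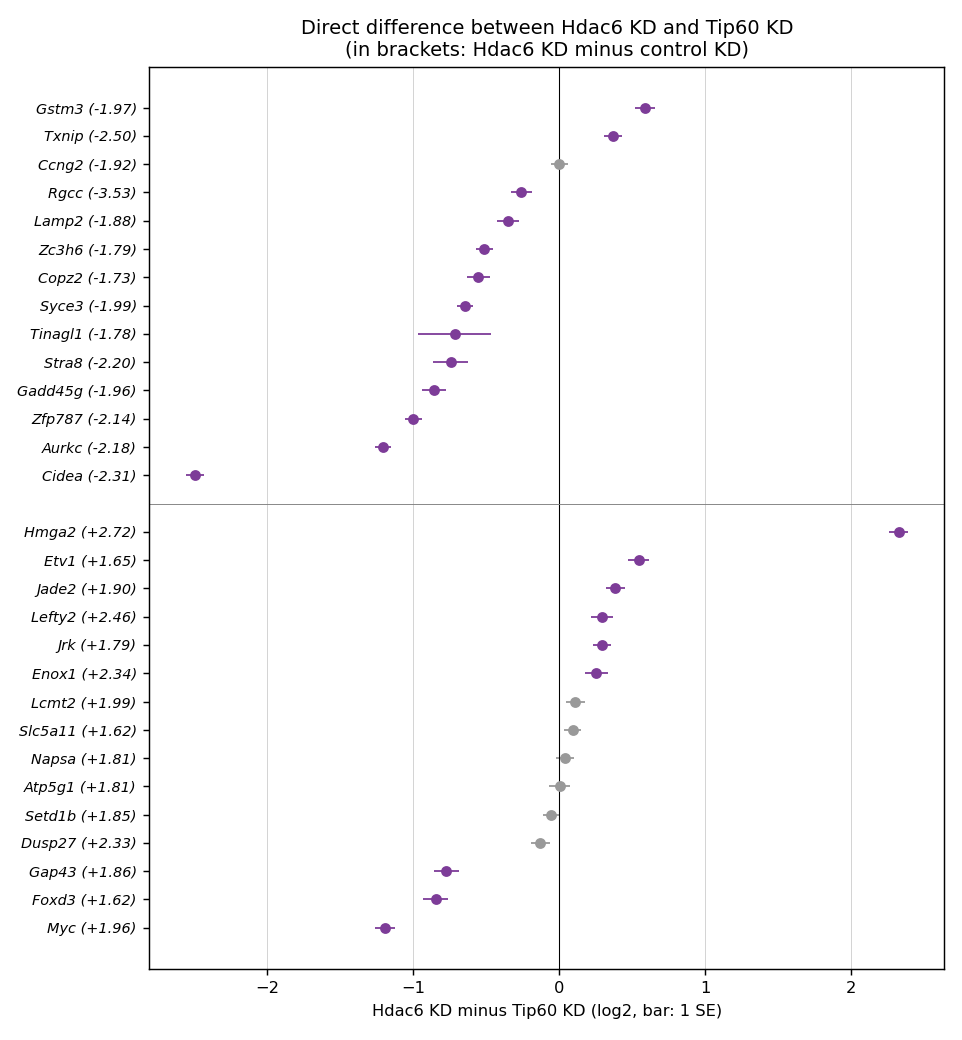
Direct difference between Hdac6 KD and Tip60 KD (log2, point, with a bar of 1 SE from limma) for the 15 largest increases (lower block) and 14 of the 15 largest decreases (upper block, Hdac6 left out) against control KD, whose change against control KD stands in brackets, in purple where the direct difference was called and grey where it was not. Hmga2 (2.33) and Cidea (-2.49) lie far from 0, Myc, Foxd3 and Gap43 lie on the side opposite to their change against control KD, and Atp5g1 lies at 0.01. Ccng2 is drawn at 0.00 because both groups were at the floor.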

How the data were processed

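RNA of 4 groups of 2 replicates of mouse E14 ESCs was measured on 1-colour Agilent whole-genome arrays as Cy3-labelled cRNA. The authors deposited fluorescence intensity for each spot, extracted with Agilent Feature Extraction (version 10.7.1.1): the mean signal, the local background and a processed signal, which the software corrects for background and which is not scaled between arrays. Positions were on build mm9. The deposited series matrix held log2 values whose normalization is not given in the sources used here; it ranked spots almost as the raw signal did and served as an alternative.

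Spots marked as outliers were left out and spots of a probe averaged. Of 39429 probes, 27324 took a symbol from RefSeq by accession, 3518 by symbol, and 8587 kept the name in the files. Processed signal was divided by the array's 75th percentile, raised to a floor (0.153 of it, the highest over arrays of the lowest signal well above background) and converted to log2. Probes well above background and over the floor on at least 2 of the 4 arrays were kept, and the brightest stood for its gene. Differences were fitted with limma 3.58.1 (lmFit, eBayes) in R 4.3.3 over all 8 arrays, with the replicate letter, which is also the slide, as a block (3 residual and 2.58 prior degrees of freedom), 2-sided, with Benjamini-Hochberg adjustment over all genes. The contrast with Tip60 KD used the same genes. All adjusted p-values come from this test. The number of arrays limits its precision. Same-lettered arrays of different groups deviated together (correlation of the A minus B differences 0.675 to 0.802 over 6 pairs of groups). On simulated data for this comparison (16515 genes) 97 of 100 genes changed 2-fold, 100 of 100 changed 4-fold and 29 of 16315 unchanged genes were called. The simulation drew independent noise for each gene from the fitted spread and changed few genes. Differences in background between arrays and place on the slide were not in it. Its counts therefore do not show how many calls in the data are false.

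Named genes were Hdac6 and Kat5, the 15 largest called increases and decreases that moved alike in both pairs, were well above background on both arrays of the higher group and had a gene symbol, and up to 6 called members a list. Further list members named for their role were chosen after their values were seen. The 41 lists (931 entries) and the comparison were chosen with earlier results of these data known, so they are described by counts and medians with no test of the list. The lists without an account of their own, two-cell-like genes (0 higher and 1 lower of 4), adhesion (12 and 10 of 34), G2 and mitosis (4 and 8 of 25), the Bcl2 family (5 and 5 of 15) and DNA methylation enzymes (4 and 0 of 9), are in the plot of gene lists. Hairpin and probe sequences were not used here, and the values of some list members are not reported here. Pandas 2.3.3 and matplotlib 3.10.9 under Python 3.11.15 made the tables and figures.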

Additional observations from a re-analysis of the deposited data

How the results depend on the processing

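Counts and named genes were recomputed under 22 alternatives: other backgrounds (normexp, or the same on every array), normalizations (quantile, series matrix), floors, filters, arrays in the fit, probes of a gene, removal of a GC trend, no replicate block, and each array left out. The series matrix values restricted to the tested genes and the filter on all 4 arrays were added after the data were seen. The number of genes called in Hdac6 KD against control KD (9894) fell to 5439 with no replicate block, and ranged from 6296 (without the replicate B array of Hdac6 KD) to 9670 when 1 array was left out. Against Tip60 KD, 7559 genes fell to 4202 with no replicate block, and ranged from 4938 (without that same array) to 8119. Genes changed at least 2-fold (464) numbered from 347 (normexp) to 651 (a low floor), 443 with no replicate block and from 442 to 617 when 1 array was left out. At an adjusted p under 0.05 no count moved by over 1.5 times. Of 229 genes examined, 203 had a value under all of these and 165 of them kept direction and call throughout, Hdac6 among them. The other 26, which include genes at the floor, had no value under at least 1, since values at the floor were left missing or the filter asked for all 4 arrays, and 21 of them kept direction and call where they had one. In all, 42 genes lost the call under at least 1 alternative, 1 (Kat5) gained it, and the called change of 65 moved by over 1.5 times. A called change turned sign in Epc1 (-0.47) and Mlxipl (-0.10) as the mean over probes, and in Slc2a3 (0.058) on the series matrix values; the cause was not tested. Genes near the floor have changes that depend on where it lies.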
